A study of Mus musculus with 6 samples.

Results

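The 8 genes described here encode UDP-glucuronosyltransferases (UGTs), and each was chosen because it was higher in cells depleted of CdGAP: Ugt1a7c, Ugt1a6a and Ugt1a6b of the Ugt1a locus, and Ugt2b36, Ugt2b5, Ugt2b35, Ugt2b34 and Ugt2b1 of the Ugt2b cluster. They are 8 of the 41214 genes in the deposited table and 8 of the 21 rows whose symbol starts with Ugt. They were selected on measured values, the difference between the 2 groups of the study, with no threshold, so the differences of these 8 genes between the groups are given as a description, without a test.

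RNA came from mouse mammary tumor explant cells grown in culture with insulin and the selection drug G418. The cells derive from NMuMG, a mammary epithelial line, and all of them carry Neu-NT, an activated ErbB2 receptor. The control population (shCON, 3 libraries) carries a control hairpin, and the other population (shCdGAP, 3 libraries) carries a hairpin against CdGAP, the Arhgap31 product, which switches off the small GTPases Cdc42 and Rac1. The labels name no separate cultures or clones for the libraries of a group, so p-values below reflect the library-to-library spread alone, and that spread may be technical. A difference in bulk RNA can come from fewer cells that carry a transcript or from less of it per cell, and these cannot be told apart.

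UGTs sit in the membrane of the endoplasmic reticulum and transfer glucuronic acid from UDP-glucuronic acid to drugs, phenols, bilirubin, steroids, bile acids and fatty acids. The conjugates are water-soluble and leave the cell through efflux pumps. Liver, kidney and intestine are the tissues best known for these enzymes. The Ugt1a genes are first exons of a shared locus, each with its own promoter and each spliced to the same 3′ exons, so the enzymes differ in the part that binds the substrate and share the part that binds the sugar donor. The Ugt2b genes are separate genes in a tandem cluster. The aryl hydrocarbon receptor (AhR) and NRF2 are known to induce Ugt1a6.

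The libraries held 19176540 to 26824249 gene-assigned reads, and 22322 genes had at least 1 read. Replicate 1 of shCdGAP stood apart from the other libraries of its group: its Pearson r over genes was 0.9476 with replicate 2 and 0.9378 with replicate 3, which correlated at 0.9957 with each other. Arhgap31, the target of the hairpin, measured 0.149 FPKM in shCdGAP replicate 1, 0.826 in replicate 2 and 0.748 in replicate 3, against 1.19, 1.30 and 1.35 FPKM in the shCON libraries. FPKM is the level per kilobase of gene model, here scaled by a size factor for each library and not by its total reads. The groups did not overlap, but the difference of -0.56 on log2(FPKM + 1) missed the threshold in limma (adjusted p = 0.0836). Leaving out shCdGAP replicate 1, in which Arhgap31 was lowest, made the difference smaller (-0.35), and it then passed (adjusted p = 0.0157).

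The promoter sequences are shown first because the 5 Ugt2b genes share a feature there that the choice of genes did not use. RefSeq promoter windows of the build GRCm38.p6 were found for 7 of the 8 genes (all but Ugt1a6b). The last 90 bases before the annotated start of each Ugt2b gene follow, written 5′ to 3′ on the strand of the gene, with capitals for a match to GTTANNNNTTAAC, a near-palindrome with an open centre.
Ugt2b34, chr5:86906938-86907027, minus strand: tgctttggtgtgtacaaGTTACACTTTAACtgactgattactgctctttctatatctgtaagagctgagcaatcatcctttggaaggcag
Ugt2b36, chr5:87092556-87092645, minus strand: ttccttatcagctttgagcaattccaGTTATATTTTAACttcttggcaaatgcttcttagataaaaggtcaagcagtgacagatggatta
Ugt2b5, chr5:87140341-87140430, minus strand: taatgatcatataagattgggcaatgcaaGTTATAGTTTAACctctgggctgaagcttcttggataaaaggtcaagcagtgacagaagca
Ugt2b35, chr5:87000770-87000859, plus strand: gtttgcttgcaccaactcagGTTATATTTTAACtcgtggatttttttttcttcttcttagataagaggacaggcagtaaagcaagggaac
Ugt2b1, chr5:86926504-86926593, minus strand: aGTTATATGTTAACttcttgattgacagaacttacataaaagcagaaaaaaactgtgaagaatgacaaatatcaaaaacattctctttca

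The match began 61 bases before the start in Ugt2b5, 64 in Ugt2b36, 70 in Ugt2b35, 73 in Ugt2b34 and 89 in Ugt2b1. Across the 250 bases before every annotated start in the RefSeq table, searched on both strands (GTTAANNNNTAAC on the other strand), the motif was in 56 of 32851 windows (0.17%). All 5 Ugt2b genes were among them, as were Ugt2b37, Ugt2b38 and Ugt3a1, which carried almost no reads here. The form of this motif was settled after these promoters had been read, so the share is a description. The core of the dioxin response element, GCGTG, was in 28.2% of windows, and the core of the antioxidant response element, TGACNNNGC, in 10.2%. Neither lay within the window of any of the 7 genes. A match to letters is not a bound site, and a missing match says only that these letters are not in the window. The Ugt1a windows are shown for contrast, as they hold none of the 3 motifs.
Ugt1a7c, chr1:88094911-88095000, plus strand: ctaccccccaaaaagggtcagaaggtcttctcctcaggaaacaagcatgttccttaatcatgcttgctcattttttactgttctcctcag
Ugt1a6a, chr1:88134719-88134808, plus strand: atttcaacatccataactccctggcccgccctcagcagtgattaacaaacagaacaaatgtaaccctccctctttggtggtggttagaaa

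Summed over the 8 genes, the level was 90.8, 102 and 107 FPKM in shCdGAP replicates 1, 2 and 3 and 31.3, 52.4 and 50.5 FPKM in shCON. Every shCdGAP library lay above every shCON library, and shCON replicate 1 was the lowest. The 8 genes made up 98.9% to 99.5% of the summed FPKM of all UGT genes in each library. Most of the sum was Ugt2b34, at 92.2% to 92.6% of it in shCON and 72.2% to 76.8% in shCdGAP. Without Ugt2b34 the sum was 25.2, 27.8 and 24.8 FPKM in shCdGAP and 2.31, 4.04 and 3.94 FPKM in shCON. The make-up of UGT transcripts therefore differed between the groups as well as their amount: Ugt1a7c went from 2.59% to 2.95% of the sum in shCON to 12.2% to 15.1% in shCdGAP, and Ugt2b36 from 0.402% to 0.708% to between 5.01% and 8.1%.

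**Figure D1:**
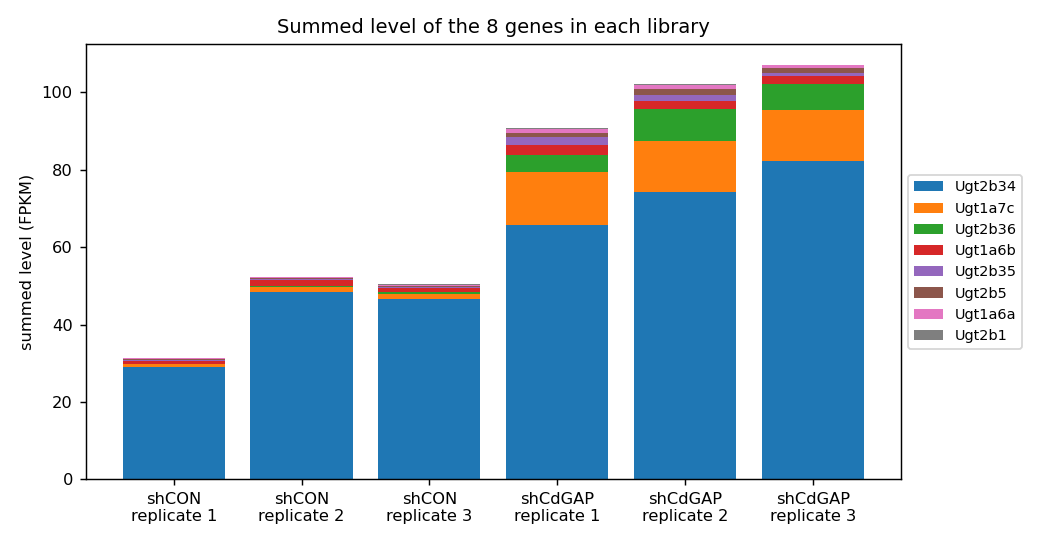
Stacked bars give the FPKM of the 8 genes in each of the 6 libraries, on a linear axis from 0. The shCON bars reach 31.3 to 52.4 FPKM and are almost all Ugt2b34, whereas the shCdGAP bars reach 90.8 to 107 FPKM with visible shares of Ugt1a7c and Ugt2b36.

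In the fit over all genes, 21.0% of the 13483 genes tested passed an adjusted p under 0.05 in limma, 9.92% as higher in shCdGAP and 11.1% as lower. All 8 genes were among those higher. In 21.8% of tested genes every shCdGAP library lay above every shCON library, and this held for all 8 too. Both counts follow from how the genes were chosen, and nothing is read from them. At the low end, Ugt2b36, Ugt2b35 and Ugt2b1 passed the filter on low reads only through their shCdGAP libraries. The median difference over the 8 genes was 0.88 on log2(FPKM + 1), beside -0.01 over all tested genes.

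Ugt2b34, a gene of the Ugt2b family, which conjugates steroids and bile acids, had by far the highest level of the 8. It stood at 65.6, 74.3 and 82.3 FPKM in shCdGAP and at 29.0, 48.3 and 46.5 FPKM in shCON, from 6464 to 8813 and 2412 to 5732 reads. The lowest shCdGAP library was 1.36 times the highest shCON library. It averaged 74.1 ± 8.36 FPKM in shCdGAP and 41.3 ± 10.7 FPKM in shCON (SD, n = 3). The ratio of 1.79 was the smallest of the 8, and it was 1.56 without shCON replicate 1.

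Ugt2b36 had the largest ratio. Its level was 4.55, 8.27 and 6.67 FPKM in shCdGAP and 0.126, 0.371 and 0.29 FPKM in shCON. The groups were far apart, with the lowest shCdGAP library at 12.3 times the highest shCON library. Averages were 6.5 ± 1.87 FPKM in shCdGAP and 0.262 ± 0.125 FPKM in shCON (SD, n = 3), from 214 to 374 reads and 5 to 21 reads. Their ratio was 24.8, or 19.6 once shCON replicate 1, with its 5 reads, was left out. Its fitted log2 difference was 2.54 (SE 0.21) on log2(FPKM + 1), and the authors' deposited table gives 4.21 (SE 0.38), on a scale with no added constant.

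Ugt2b5 and Ugt2b35 had similar levels in shCdGAP but not the same pattern over libraries. Ugt2b5 stood at 1.18, 1.54 and 1.34 FPKM in shCdGAP and at 0.279, 0.254 and 0.241 FPKM in shCON, a ratio of means of 5.25. Its shCON libraries varied least of the 8 genes, with a coefficient of variation of 7.32%, and it was the sole gene of the 8 for which shCON replicate 1 was not the lowest shCON library. Ugt2b35 stood at 1.99, 1.55 and 0.779 FPKM in shCdGAP and at 0.147, 0.31 and 0.319 FPKM in shCON, a ratio of 5.57. Its shCdGAP libraries spread most of the 8 genes (42.6%), with replicate 3 the low one at 2.44 times the highest shCON library. Leaving out shCON replicate 1 gave ratios of 5.47 and 4.58.

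Ugt2b1 was the lowest of the 8. It had 18, 19 and 12 reads in shCdGAP (0.306, 0.336 and 0.188 FPKM) and 1, 6 and 8 reads in shCON (0.0201, 0.0848 and 0.116 FPKM). The groups did not overlap, but shCdGAP replicate 3 and shCON replicate 3 were only 4 reads apart. The ratio of means was 3.75, and 2.75 without shCON replicate 1.

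**Figure D2:**
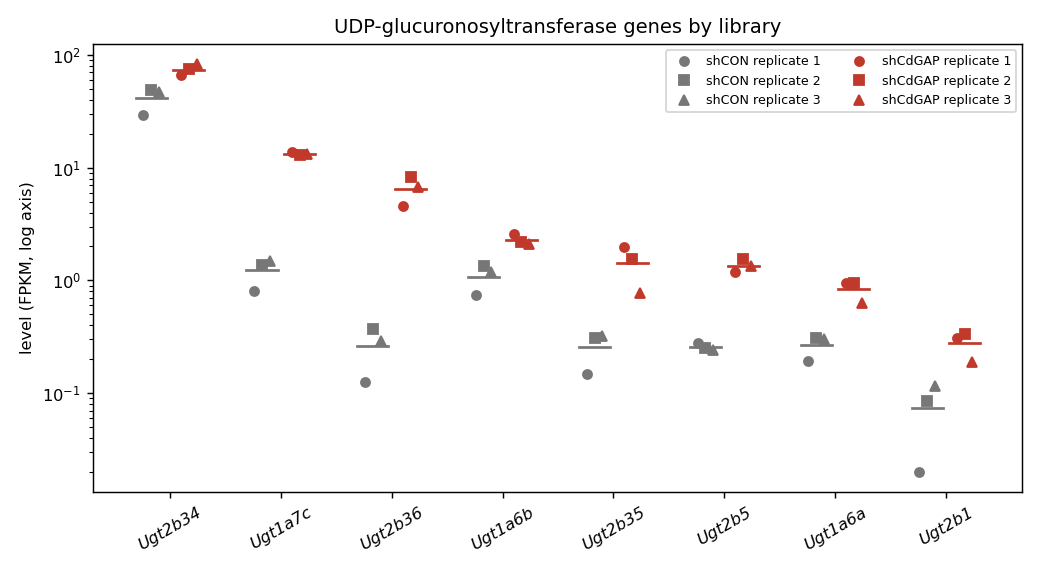
Points give the FPKM of each library on a log axis for the 8 genes, ordered by their shCdGAP mean, with grey for shCON, red for shCdGAP and a line at each group mean (n = 3). Every red point lies above every grey point of its gene, with the widest gap for Ugt2b36 (12.3-fold between the nearest libraries) and the narrowest for Ugt2b34 (1.36-fold).

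At the Ugt1a locus, Ugt1a7c, a phenol-conjugating form, stood at 13.7, 13.0 and 13.1 FPKM in shCdGAP and at 0.81, 1.38 and 1.49 FPKM in shCON. The shCdGAP libraries were nearly equal (coefficient of variation 2.69%), and the lowest of them was 8.73 times the highest shCON library. Reads numbered 1204 to 1373 in shCdGAP and 66 to 168 in shCON. On average the level was 13.3 ± 0.357 FPKM in shCdGAP and 1.23 ± 0.364 FPKM in shCON (SD, n = 3). These gave a ratio of 10.8, and of 9.25 without shCON replicate 1. The fitted difference was 2.69 (SE 0.14) on log2(FPKM + 1), beside 3.31 (SE 0.25) in the authors' deposited table.

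The Ugt1a6 copies, which conjugate small planar phenols, were lower in the deposited values and differed less between the groups. Some of their exon bases also lie in the Ugt1a7c model, as given below. Ugt1a6b stood at 2.57, 2.18 and 2.1 FPKM in shCdGAP and at 0.739, 1.33 and 1.18 FPKM in shCON, a ratio of means of 2.11. Ugt1a6a stood at 0.943, 0.951 and 0.625 FPKM in shCdGAP and at 0.192, 0.312 and 0.303 FPKM in shCON, a ratio of 3.12. The groups did not overlap for either gene, with the nearest libraries 1.58-fold apart for Ugt1a6b and 2.0-fold for Ugt1a6a. The ratios were 1.82 and 2.73 with shCON replicate 1 left out.

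Per kilobase of gene model, Ugt2b34 was highest in both groups. In shCdGAP it was followed by Ugt1a7c, Ugt2b36 and Ugt1a6b, and neighbours in this order did not overlap. Ugt2b35 and Ugt2b5 came next and overlapped each other, then Ugt1a6a, whose libraries overlapped those of Ugt2b35 but not of Ugt2b5, and last Ugt2b1. In shCON, Ugt1a7c and Ugt1a6b followed Ugt2b34 and overlapped each other. Ugt1a6a, Ugt2b36, Ugt2b35 and Ugt2b5 all lay at 0.258 to 0.269 FPKM on average and overlapped, and Ugt2b1 lay below them. The wide spread of levels seen in shCdGAP among Ugt2b36, Ugt2b35, Ugt2b5 and Ugt1a6a was thus not present in shCON.

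Replicate 1 of shCON was the lowest shCON library for 7 of the 8 genes, against 41.3% of all tested genes. It was also the library with the fewest reads. Its part in the ratios was not tested, but each of the 8 ratios stayed above 1.5 without it. Replicate 1 of shCdGAP, the library that stood apart, was the highest shCdGAP library for 3 of the 8 genes, against 46.7% of tested genes. Leaving it out moved the median difference of the 8 no further than the range of 0.74 to 0.93 over all single libraries left out.

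The Ugt1a genes share exons, and this bears on how their reads can be assigned. In the mm10 annotation of GENCODE M21, Ugt1a7c (ENSMUSG00000090124) runs from 88095062 to 88220002 on chromosome 1, Ugt1a6b (ENSMUSG00000090145) from 88103252 to 88219003 and Ugt1a6a (ENSMUSG00000054545) from 88134809 to 88218997, all on the plus strand. Of 4219 exonic bases of Ugt1a7c, 1915 (45.4%) lie in no other gene on its strand: 917 in its first exon and 998 past the end of every other Ugt1a model. The 998 bases continue the shared last exon, so RNA of another Ugt1a gene running past its model would also fall there. Ugt1a6b has 938 own bases of 2382 (39.4%), all in the exon from 88106862 to 88107799. Ugt1a6a has 2142 own bases of 4312 (49.7%), of which 619, 255 and 1046 lie between the shared 3′ exons, where unspliced RNA of any Ugt1a gene would also fall. In its 5′ part, the stretch from 83.085 to 83.944 kb past the start of Ugt1a10 also lies in the Ugt1a7c model. Reads there belong to neither gene alone, and the effect of this on the Ugt1a6a and Ugt1a7c values was not tested.

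**Figure D3:**
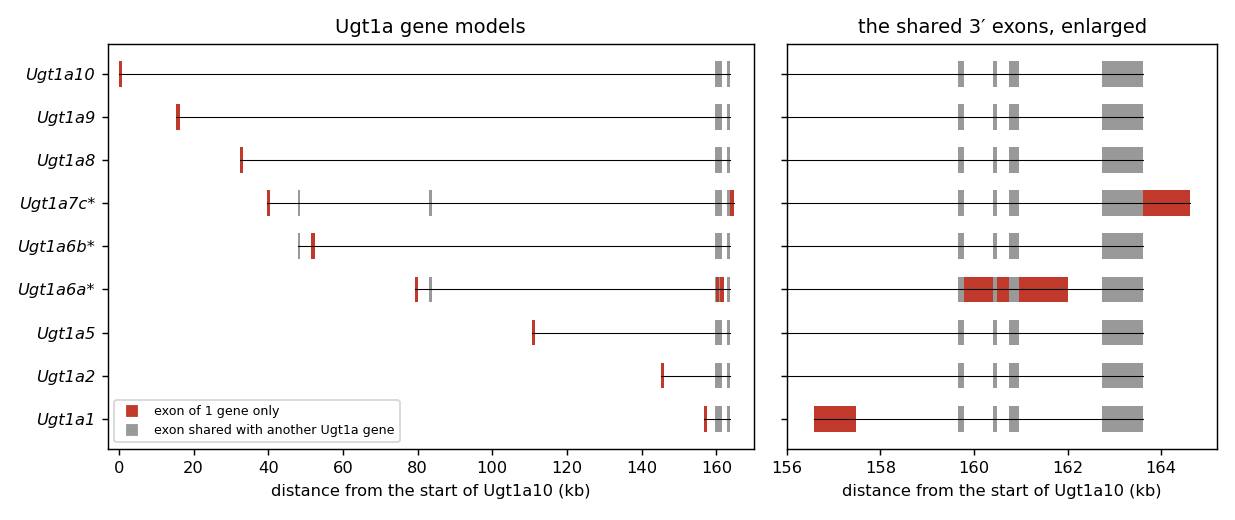
Gene models of the Ugt1a locus are drawn by distance from the start of Ugt1a10 in kb, with the 3′ end enlarged on the right and the narrowest exons widened to stay visible, red for exons of 1 gene only, grey for exons shared with another Ugt1a gene, and asterisks at the 3 genes described. The own bases of Ugt1a7c lie at both ends of its model (917 and 998 bases), and most own bases of Ugt1a6a lie between the shared 3′ exons.

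How the authors treated reads that fall in shared exons is not given in the sources used here. Ugt1a2 shares 1311 exonic bases with the other models and had at most 1 read in any library, so reads in shared exons were not given to every gene that holds them. If the reads of the 3 genes came only from their own bases, the level per own base would be 29.2 FPKM in shCdGAP and 2.7 in shCON for Ugt1a7c, 5.79 and 2.75 for Ugt1a6b, and 1.69 and 0.542 for Ugt1a6a. This rescaling was added after the data had been seen. It leaves each ratio between the groups as it was and puts Ugt1a7c and Ugt1a6b level in shCON. Of the 50-base words of whole transcripts, shared exons included, 46.3% for Ugt1a7c, 47.9% for Ugt1a6a and 20.2% for Ugt1a6b occur in no other gene. For Ugt1a7c and Ugt1a6a these shares lie near their shares of own bases (45.4% and 49.7%). For Ugt1a6b the share lies below that of its own bases (39.4%), so near-identical sequence outside the shared exons adds to the overlap there.

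A non-coding gene on the minus strand, Gm20528 (ENSMUSG00000092220, chromosome 1, 88055393 to 88218584), lies over the Ugt1a exons, and all 1062 of its exonic bases overlap them. Its level was 1.48, 1.84 and 1.14 FPKM in shCdGAP and 0.0487, 0.24 and 0.176 FPKM in shCON. The groups did not overlap, and it was higher in shCdGAP by 1.10 on log2(FPKM + 1) (limma, adjusted p = 0.00271). The strand setting of the count is not given, so its 30 to 43 reads in shCdGAP cannot be told apart from reads of the Ugt1a genes.

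The 5 Ugt2b genes share no exonic base with another gene on their strand. In GENCODE M21 they lie on chromosome 5: Ugt2b34 (ENSMUSG00000029260) from 86889767 to 86906937, Ugt2b1 (ENSMUSG00000035836) from 86916638 to 86926530, Ugt2b35 (ENSMUSG00000035811) from 87000860 to 87013275, Ugt2b36 (ENSMUSG00000070704) from 87065927 to 87092555 and Ugt2b5 (ENSMUSG00000054630) from 87124960 to 87140318. Ugt2b35 is on the plus strand and the other 4 are on the minus strand. Of their 50-base words, 98.6% to 100% occur in no other gene for Ugt2b34, Ugt2b35, Ugt2b36 and Ugt2b1. For Ugt2b5 the share is 58.3%, so its reads could be split with a near-identical copy. The gene model behind the deposited value of Ugt2b35 has 1758 bases and that of M21 has 3359, and the model length of the other 7 genes equals that of M21.

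The remaining 13 Ugt rows held 34, 36 and 38 reads in all in shCdGAP and 20, 18 and 23 in shCON, and none passed the filter for the test. Ugt1a1, the bilirubin-conjugating form, had 17, 11 and 9 reads in shCdGAP and 6, 5 and 9 in shCON, so the groups met at 9 reads. Ugt1a8 had 6, 3 and 6 reads in shCdGAP and 0, 0 and 1 in shCON, and Ugt1a9 had 2, 8 and 10 against 0, 3 and 0. Ugt2a3 (1, 4 and 5 reads against 0, 0 and 2), Ugt2b38 (1, 2 and 4 against 0 in each) and Ugt2b37 (0, 4 and 2 against 0 in each) were near the limit of detection, as 0 reads allows up to 3. Ugt1a5 had at most 3 reads in a library, Ugt1a2 at most 1, Ugt3a1 2 reads in shCON replicate 2 alone, and Ugt3a2 a single read in shCdGAP replicate 3. Ugt1a10 and Ugt2a1 had none in any library. Of 2541 exonic bases of Ugt2a1 in M21, only 140 (5.51%) lie in no other gene on its strand, so its reads could be missed. Ugt8a, which transfers galactose rather than glucuronic acid, had 3, 2 and 1 reads in shCdGAP and 12, 6 and 9 in shCON, the reverse order. The 8 genes are thus the members of the family with enough reads to be tested, and the other genes of the same clusters had too few assigned reads to compare.

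Genes around glucuronidation were taken from 6 lists, including the remaining UGT genes, with 78 of 79 genes in the table. Of the 50 that were tested, 6 were higher, 16 were lower and 28 did not pass. This was 44.0% called, beside 21.0% of all tested genes, with a median difference of -0.18 on log2(FPKM + 1). The count was 37 without shCdGAP replicate 1, the library that stood apart, and 11 in the smallest leave-one-out fit. Over all 13483 tested genes these fits called 5373 and 1237. Most of the called genes were thus lower. The lists were chosen with earlier results of these data known, so the count is a description. The direction of the 8 UGT genes was fixed by their choice and is not compared with it.

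Of 8 genes that make, move or remove glucuronic acid, 4 were lower, none was higher and 4 did not pass in limma. Slc35d1, the transporter that carries UDP-glucuronic acid into the endoplasmic reticulum, stood at 3.19, 2.78 and 2.49 FPKM in shCdGAP and 5.22, 5.85 and 5.76 FPKM in shCON, a difference of -0.79 (adjusted p = 0.00549). Gusb, the lysosomal beta-glucuronidase that removes glucuronic acid, stood at 8.44, 9.72 and 10.4 against 15.9, 15.4 and 15.7 FPKM, a difference of -0.67 (adjusted p = 0.00724). Both groups were well apart, and both calls held in every alternative in which the gene was tested. Uxs1, which turns UDP-glucuronic acid into UDP-xylose, and Pgm1, a phosphoglucomutase, were lower by smaller margins, with differences of -0.60 (adjusted p = 0.0497) and -0.42 (adjusted p = 0.037).

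The calls of Uxs1 and Pgm1 were lost under several alternatives. Without a filter on low genes the adjusted p was 0.0788 for Uxs1 and 0.0573 for Pgm1, and at a mean of at least 5 CPM it was 0.0527 for Uxs1. Leaving out shCON replicate 1, 2 or 3 gave an adjusted p of 0.108, 0.175 and 0.152 for Uxs1 and of 0.0851, 0.112 and 0.0951 for Pgm1. Without shCdGAP replicate 2 or 3 it was 0.101 and 0.0519 for Uxs1 and 0.127 and 0.075 for Pgm1, and with a replicate block it was 0.0668 for Pgm1. Ugdh, which makes UDP-glucuronic acid, stood at 196, 92 and 88.1 FPKM in shCdGAP and 167, 150 and 146 FPKM in shCON, so replicate 1 lay above every control library and replicates 2 and 3 below (difference -0.40, adjusted p = 0.428). Without shCdGAP replicate 1 Ugdh was lower (-0.77, adjusted p = 0.00111). Ugp2, which makes its precursor UDP-glucose, stood at 56.9, 39.8 and 38.2 against 27.1, 31.2 and 29.1 FPKM. That difference of 0.59 had an adjusted p of 0.059, and without shCdGAP replicate 1 Ugp2 was higher by 0.41 (adjusted p = 0.0104). Ugdh and Ugp2 are named outside the rule for names, as the steps that make the sugar donor.

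Of 8 efflux pumps, 3 were lower, 1 was higher and 4 did not pass. Abcb1a, which encodes a P-glycoprotein, stood at 0.95, 0.449 and 0.441 FPKM in shCdGAP and 4.03, 3.95 and 3.66 FPKM in shCON (difference -1.61, limma adjusted p = 0.00113, held in every alternative tested). Its sister gene Abcb1b stood at 1.3, 4.32 and 4.69 against 12.0, 11.9 and 11.8 FPKM (-1.65, adjusted p = 0.0224). P-glycoproteins carry mainly unconjugated drugs, so the clearest falls in this list are not of the pumps known for glucuronides. The adjusted p of Abcb1b was 0.0822, 0.0845 and 0.0813 with shCON replicate 1, 2 or 3 left out.

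Among the MRP pumps, which carry glucuronides, Abcc1 was lower at 9.38, 9.37 and 11.1 FPKM against 19.6, 14.1 and 14.5 (-0.63, limma adjusted p = 0.0331). Abcc5, known mainly for cyclic nucleotides, was higher at 31.4, 26.4 and 22.9 FPKM against 17.1, 18.7 and 17.7 (0.56, adjusted p = 0.0327). Neither pair of groups overlapped. With a replicate block the adjusted p was 0.0632 for Abcc1 and 0.0605 for Abcc5. Without shCON replicate 1, 2 or 3 it was 0.0629, 0.0746 and 0.0843 for Abcc1 and 0.107, 0.104 and 0.121 for Abcc5. Without shCdGAP replicate 2 it was 0.114 and 0.102, and without shCdGAP replicate 3 it was 0.0503 for Abcc1. Without a filter on low genes it was 0.0542 for Abcc1 and 0.0528 for Abcc5, and with library size scaling 0.0533 for Abcc5.

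Abcc2 and Abcc3, the best known glucuronide pumps, are named outside the rule. So are Abcg2 and Abcc4, the other pumps that did not pass. Abcc3 stood at 4.91, 4.21 and 5.31 FPKM in shCdGAP and 3.75, 7.85 and 7.45 in shCON, with overlapping groups (-0.29, adjusted p = 0.479). Without both libraries numbered 1 it was lower (-0.59, adjusted p = 0.00522). Abcc2 stood at 6.38, 0.689 and 0.665 against 2.49, 2.52 and 2.06 FPKM and did not pass, but was lower without shCdGAP replicate 1 (-1.0, adjusted p = 0.000696). In both Ugdh and Abcc2, shCdGAP replicate 1 lay above every control library and replicates 2 and 3 lay below. Abcg2 went the other way, at 7.37, 17.1 and 18.7 FPKM in shCdGAP against 6.07, 8.79 and 8.52 in shCON (0.72, limma adjusted p = 0.203). Without shCdGAP replicate 1 Abcg2 was higher (1.12, adjusted p = 0.0023). Abcc4 differed by -0.05 (adjusted p = 0.895) and was lower in that same fit (-0.3, adjusted p = 0.031).

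Transcription factors known to act on UGT genes moved both ways: of 17 tested of 22, 3 were higher, 3 were lower and 11 did not pass. Hnf4a, a nuclear receptor of liver and gut, overlapped between groups at 85.3, 53.8 and 54.0 FPKM against 56.1, 60.5 and 62.7 (limma, adjusted p = 0.832), and it is named outside the rule.

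Nr1h4, which encodes the bile acid receptor FXR, was lower, at 4.04, 4.19 and 4.18 FPKM in shCdGAP against 16.1, 14.6 and 14.6 in shCON (-1.65, limma adjusted p = 0.000199). The forkhead factors moved apart. Foxa1 fell to 1.78, 2.49 and 2.44 FPKM from 12.3, 9.27 and 8.76 (-1.77, adjusted p = 0.0012), and Foxa2 rose to 37.6, 33.4 and 31.0 FPKM from 18.4, 20.4 and 22.1 (0.71, adjusted p = 0.00933). None of these groups overlapped. The calls of Nr1h4 and Foxa1 held in every alternative, and that of Foxa2 was lost without shCON replicate 2 (adjusted p = 0.0524).

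All 5 tested AhR target genes of 7 were called, 4 of them lower and 1 higher. Cyp1b1 stood at 7.56, 7.81 and 8.87 FPKM in shCdGAP and 0.111, 0.44 and 0.656 FPKM in shCON (2.71, limma adjusted p = 0.000311). Cyp1a1, the most used readout of the receptor, went the other way, at 0.0501, 0.0348 and 0.0615 FPKM against 1.01, 3.33 and 3.27 (-1.67, adjusted p = 0.0133). Nqo1, a quinone reductase also induced by NRF2, was likewise lower at 0.0563, 0.0293 and 0.0259 FPKM against 0.9, 0.538 and 0.722 (-0.72, adjusted p = 0.00295).

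Ahr, which encodes the receptor and is named outside the rule, stood at 20.9, 17.9 and 14.5 FPKM in shCdGAP and 13.0, 10.8 and 11.0 in shCON (0.57, limma adjusted p = 0.0491). The groups did not overlap, but the call was lost without a filter on low genes (adjusted p = 0.0776), at a mean of at least 5 CPM (0.0522) and with library size scaling (0.0714). It was also lost without shCdGAP replicate 2 (0.141) or shCON replicate 1, 2 or 3 (0.0827, 0.175 and 0.167). Among the tested AhR target genes, Cyp1b1 was higher, while Cyp1a1, Nqo1, Aldh3a1 and Tiparp were lower. Tiparp, named outside the rule, differed by -0.86 (limma adjusted p = 0.0374), a call lost in several alternatives. Ugt1a6a and Ugt1a6b are themselves known targets of the receptor. They were chosen for being higher, so their direction adds nothing to this count.

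Aldh3a1, an aldehyde dehydrogenase, stood at 5.02, 4.43 and 4.91 FPKM in shCdGAP against 7.46, 16.8 and 16.8 in shCON (-1.27, limma adjusted p = 0.0329). Replicate 1 of shCON was the lowest control library for Aldh3a1, Cyp1a1 and Cyp1b1 and the highest for Nqo1 and Tiparp. It was the lowest in 41.3% of all tested genes. The call of Cyp1a1 was lost without shCdGAP replicate 2 (adjusted p = 0.054), shCON replicate 2 (0.0532) or shCON replicate 3 (0.0529). The call of Aldh3a1 was lost with a replicate block (0.0527), without a filter on low genes (0.0557), without shCdGAP replicate 2 or 3 (0.106 and 0.075) and without shCON replicate 2 or 3 (0.119 and 0.116). Those of Cyp1b1 and Nqo1 held in every alternative in which they were tested.

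Of 12 tested phase I genes of 20, whose enzymes make the groups that UGTs conjugate, 1 was higher, 2 were lower and 9 did not pass. Cyp2s1, an extrahepatic cytochrome P450, stood at 5.85, 6.05 and 3.93 FPKM in shCdGAP and 0.975, 1.95 and 1.89 FPKM in shCON (1.27, limma adjusted p = 0.0113). Ces2e, a carboxylesterase, stood at 0.243, 0.135 and 0.179 FPKM against 2.95, 2.64 and 2.6 (-1.65, adjusted p = 0.000155). Cyp2j6, an epoxygenase of fatty acids, stood at 1.06, 0.316 and 0.234 FPKM against 3.14, 4.25 and 4.19 (-1.69, adjusted p = 0.00441). The groups of each gene were apart, and all 3 calls held in every alternative in which the gene was tested.

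**Figure D4:**
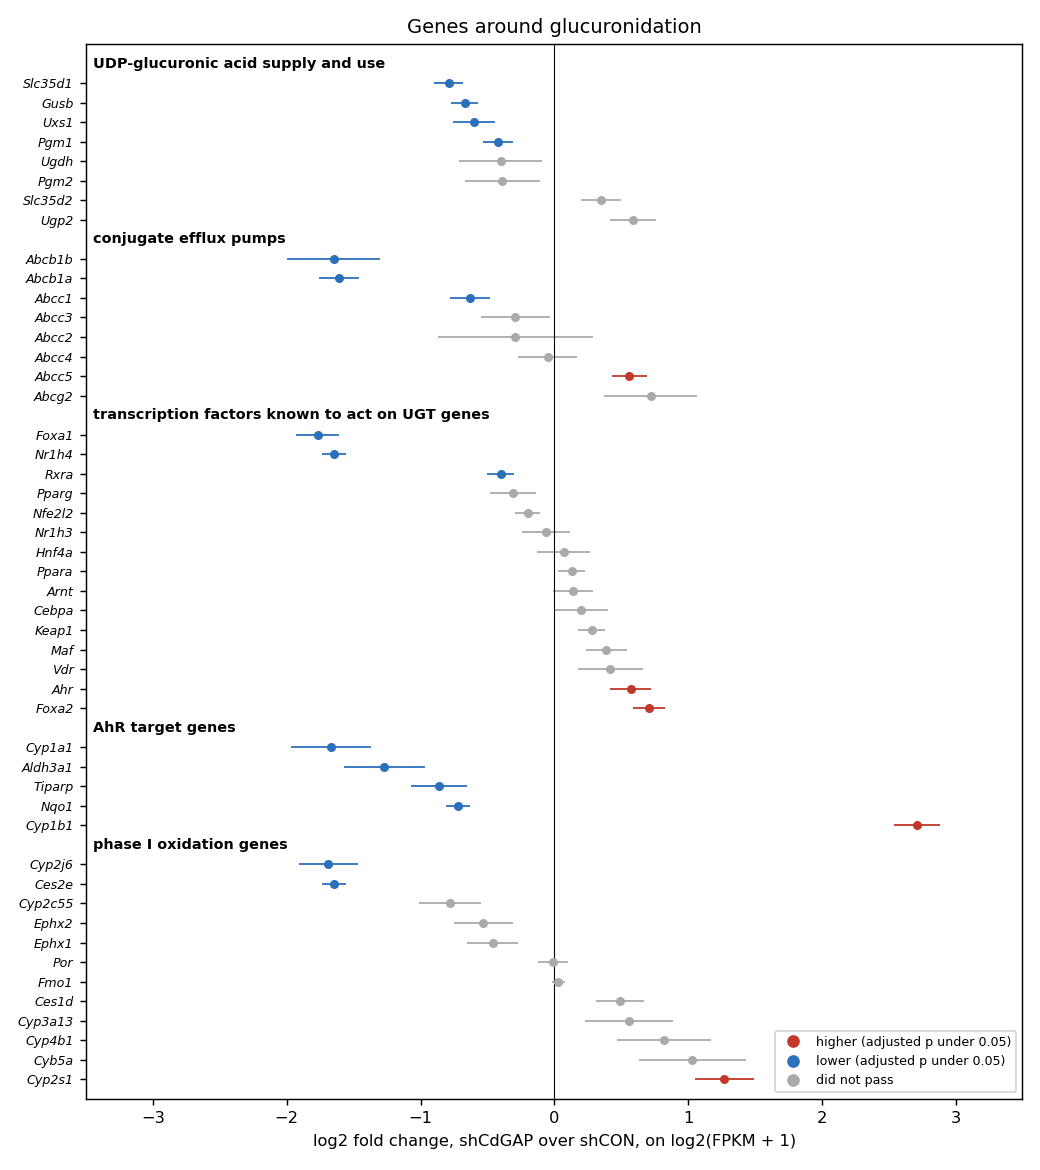
Points give the difference between shCdGAP and shCON on log2(FPKM + 1) with its standard error as a bar for 48 tested genes of the pathway lists, red where higher, blue where lower and grey where the adjusted p in limma was not under 0.05. Blue points (16) outnumber red ones (5), and Cyp1b1 (2.71) and Foxa1 (-1.77) lie at the ends.

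Markers of cell types known for UGTs were read beside these values. Luminal keratins dominated, with Krt8, Krt18, Krt19 and the rest of the luminal list summing to 3820 to 6390 FPKM in shCdGAP and 3580 to 5010 in shCON and 0 of 4 tested genes called in limma. Of the other luminal genes, Pgr, Csn2 and Wap had no reads in any library, and Elf5 at most 2. Esr1 had 28, 31 and 20 reads in shCON and 0, 1 and 2 in shCdGAP, and Prlr 5, 6 and 3 in shCON and none in shCdGAP. The basal list summed to under 1 FPKM in every library, with Krt5, its 1 tested gene, lower in shCdGAP. Of 13 hepatocyte markers, 6 were tested and 3 were higher, with the list summing to 7.01 to 29.5 FPKM in shCdGAP and 1.93 to 2.78 in shCON. Alb stood at 6.61, 7.49 and 3.05 FPKM against 0.329, 0.463 and 0.274, and Ttr at 11.6, 4.78 and 0.991 against 0.0425, 0.0298 and 0.0613. Fgb was also higher, Fga and Fgg lay above shCON in every shCdGAP library without a call, and Serpina1a overlapped. The defining markers Ahsg and Cyp3a11 were at 0 in all libraries. Apoa1 and Apoc3 lay lower in every shCdGAP library, on average at 0.257 against 0.379 FPKM and 0.015 against 0.102 FPKM. Apoa1 did not pass and Apoc3 was not tested. Apoa2, Cps1 and Tat overlapped, with no more than 8 reads in a library.

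The renal list summed to 1.64 to 2.2 FPKM in shCdGAP and 1.56 to 2.09 in shCON, with Miox and Kap at 0 and 1 of 2 tested genes lower. The enterocyte list summed to 90.8 to 107 and 86.8 to 114 FPKM, with Vil1 higher (1.75, limma adjusted p = 0.0105), Cdh17 lower (-0.88, adjusted p = 0.0075) and Apoa4, Sis and Cdx1 at 0. Alpi and Fabp2 lay lower in every shCdGAP library, on average at 0.013 against 0.239 FPKM and 0.0907 against 0.475 FPKM. Lct overlapped near 0, and none of Alpi, Fabp2 and Lct was tested. The leukocyte list summed to 2.65 to 8.65 FPKM in shCdGAP and 12.4 to 17.5 in shCON, nearly all of it Cd68, which was lower, while Itgam was higher at under 1 FPKM and Ptprc was near 0. The summed hepatocyte level was thus higher in shCdGAP, though not every hepatocyte marker was. The 8 UGT genes were higher too, and the part of the hepatocyte level in their values was not tested.

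The genes whose profile over the 6 libraries was most like that of the loci were found among 9774 genes of at least 5 CPM, by Pearson r on log2(FPKM + 1). For the summed Ugt1a level (17.2, 16.1 and 15.8 FPKM in shCdGAP, 1.74, 3.02 and 2.97 in shCON) they were Pea15a (0.9997), Mpc1 (0.9990) and Samd9l (0.9989), and 524 genes exceeded 0.95. For the summed Ugt2b level (73.6, 86.1 and 91.3 FPKM in shCdGAP, 29.5, 49.4 and 47.5 in shCON) they were Exoc3 (0.9978), Znfx1 (0.9973) and Zfp160 (0.9949), and 151 genes exceeded 0.95. The r values describe 6 libraries in 2 groups, so a gene with a large group difference can score high with nothing else in common.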

How the data were processed

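RNA-seq of 3 shCdGAP and 3 shCON libraries was used, grouped by title, which matches the genotype label. The cell type label names the control hairpin for all 6 samples and so disagrees with both in shCdGAP. The submitters' processing notes name mm10 as the build, DESeq2, featureCounts, TopHat2 2.0.13 and Trimmomatic, without their roles. The authors deposited 1 table with FPKM per library and, per the file headers, their own DESeq2 comparison: the mean signal (normalised reads), log2 fold change and its error, test score and p-values. For strand, annotation release and shared reads, the handling is not given in the sources used here.

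Whole reads were recovered from FPKM, the mean signal and 1 size factor per library for 100% of values (tolerance 1e-06). They gave depth, the filter and the limma-voom alternative, which called 2968 genes. Since the table held FPKM and not counts, the test was limma 3.58.1 in R 4.3.3 on log2(FPKM + 1), with trend and robust empirical Bayes, 2-sided, with Benjamini-Hochberg adjustment over 13483 genes of at least 10 scaled reads in 3 libraries and 15 in all. This scale understates changes of low genes. The script was tested on simulated data. Positions and shared exons came from GENCODE M21, promoters from RefSeq (GRCm38.p6). Plots used matplotlib 3.10.9 and tables pandas 2.3.3, with numpy 2.4.6 in Python 3.11.15.

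The 8 genes and the lists were chosen with earlier results of these data known. Genes named are the 8, other UGT genes with reads, up to 4 changed genes per list by smallest p, 3 like profiles per locus, and Arhgap31. Of the list genes, 2 are counted but not reported here. Other names are marked where they stand or serve as cell type markers. Alternatives were a replicate block, pseudocount, filter, voom, library size scaling and libraries left out. Deviations from group means of same-numbered libraries correlated at 0.432, 0.387 and 0.335. The main fit used the group alone, and only the replicate block took same-numbered libraries as pairs. The labels do not state this pairing, and shCdGAP replicate 2 also correlated at 0.354 with shCON replicate 3.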

Additional observations from a re-analysis of the deposited data

How the results depend on the processing

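Over 13 alternatives the fitted differences of the 8 UGT genes were above 0 in all 99 values, a direction fixed by the choice of genes. Their median of 0.88 was 0.88 with a replicate block, 1.68 with a pseudocount of 0.1 FPKM, 2.12 in limma-voom, 0.70 without both libraries numbered 1, and 2.54 over the 3 genes of at least 5 CPM. Leaving out single libraries gave 0.74 to 0.93. The larger values follow from a smaller added constant or from the highest genes alone.

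Called genes numbered 2838, and 2458 with the paired fit (replicate block). Without both libraries numbered 1 there were 6506, and with single libraries left out 1237 to 5373, the highest without shCdGAP replicate 1 and the lowest without shCON replicate 2. The cause was not tested. Pathway genes called numbered 22, with 17 under the replicate block, 42 without both libraries numbered 1 and 11 to 37 with single libraries left out. Library size scaling gave 1112 higher and 1705 lower genes, beside 1337 and 1501. Of 995 values for 78 other genes, 94 lost and 57 gained a call. Among genes called in the main fit 0 values changed sign, while changes of sign in uncalled genes were not counted. Hnf4a, for instance, went from 0.07 in the main fit to -0.19 without both libraries numbered 1 (limma adjusted p = 0.0464). Beside the 4 calls named above, the replicate block lost those of Rxra (adjusted p = 0.0518) and of Atg16l1, a neighbour of the Ugt1a locus (0.0815), and gained that of Znfx1 (0.0486). Low read numbers limit Ugt2b1 and the UGT genes that were not tested.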

Other observations

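The genes beside the UGT loci were read to see how far the pattern of the 8 genes extends along the chromosomes, with all annotated genes within 500 kb of each locus taken after the data had been seen. Around the Ugt2 cluster (chromosome 5, 86889767 to 87482260) 7 non-UGT genes were tested, of which 1 was higher, 3 were lower and 3 did not pass in limma. Of all 13483 tested genes, 9.92% were higher and 11.1% lower, the background for the counts at both loci. The higher gene was Sult1d1, a cytosolic sulfotransferase and so another conjugating enzyme, at 2.88 ± 1.56 FPKM in shCdGAP and 0.112 ± 0.0337 in shCON (SD, n = 3), a difference of 1.73 on log2(FPKM + 1) (limma, adjusted p = 0.00707). Csn3, which encodes kappa-casein, fell to 0.512 ± 0.11 from 5.87 ± 0.857 FPKM (limma, adjusted p = 0.000267), and Tmprss11e, a membrane serine protease, fell to 0.00427 from 1.10 FPKM (adjusted p = 0.0045). Ythdc1, a reader of methylated RNA next to Ugt2b34, did not pass, at 12.1 ± 1.36 and 13.6 ± 1.19 FPKM.

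Around the Ugt1a locus (chromosome 1, 88055388 to 88220002) 14 neighbours were tested, with 2 higher, 6 lower and 6 that did not pass. The 2 higher ones were Gm20528, which lies over the Ugt1a exons, and Mroh2a, which starts past their end and averaged 0.505 ± 0.182 FPKM in shCdGAP, against 0.0441 ± 0.0152 FPKM in the controls (limma, adjusted p = 0.0137). Mroh2a did not pass once shCON replicate 1 (adjusted p = 0.0558), replicate 2 (0.0641) or replicate 3 (0.056) was left out. Of the genes that did not pass, Spp2 lay above shCON in every shCdGAP library. It averaged 1.88 ± 1.57 against 0.0895 ± 0.0612 FPKM (limma, adjusted p = 0.0602). Sag lay below shCON in every shCdGAP library, on average at 0.524 against 1.23 FPKM (adjusted p = 0.0552). Glrp1, which fell to 7.77 ± 1.99 from 23.8 ± 5.93 FPKM (limma, adjusted p = 0.00729), and Gm19589, which fell to 1.12 ± 0.362 from 5.93 ± 1.17 FPKM (adjusted p = 0.00249), were among the lower ones. Over all tested genes of at least 3 FPKM, the median difference on chromosome 1 (537 genes) was -0.10 relative to that of all such genes, and that on chromosome 5 (610 genes) was 0.00.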
